A study of Mus musculus with 7 samples.

Results

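The alveolar capillary genes described here were 5 genes of aerocytes (Car4, Tbx2, Fibin, Chst1 and Apln) and 5 genes of general capillary cells (Gpihbp1, Aplnr, Cd93, Ptprb and Tmem100). They were picked by name from a count table of 55401 genes, as known markers but with earlier results of these data known. All 10 were found, and all 10 were among the 17465 genes that passed the filter on low counts. RNA came from the right lung lobes of 7 male C57BL/6 mice aged 6 to 8 weeks, 1 library per mouse, all of which had been given bleomycin into the airway, a drug that injures the lung and leaves fibrosis. At day 7 they had been randomised to bleomycin alone (BLM, n = 4) or bleomycin with hyperbaric oxygen (BLM+HBO, n = 3). Hyperbaric oxygen was breathed in a pressure chamber at 2.5 ATA, for 90 min a day over 14 days, and lungs were taken at day 21. The BLM mice were kept in the chamber without oxygen pressure according to the sample records and were left untreated according to the study's methods, and which applied was not settled here. Every mouse analysed here carried bleomycin injury, so no level could be set against a healthy lung, and mice with little weight loss had been excluded by the study.

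Gas exchange in the alveolus runs across a net of capillaries built from 2 kinds of endothelial cell. Aerocytes are large, flat cells that lie against the alveolar epithelium and are specialised for gas exchange, and general capillary cells regulate vessel tone and can divide to replace both kinds after injury. The kinds are linked by the peptide apelin, which aerocytes make from Apln and which acts on the receptor encoded by Aplnr on general capillary cells. The general capillary genes also hold the docking protein of lipoprotein lipase (Gpihbp1) and a phosphatase that acts on TIE2 and VE-cadherin (Ptprb). They include a membrane lectin-like receptor for the matrix protein multimerin 2 (Cd93) and a membrane protein induced by BMP9 through ALK1 (Tmem100).

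Upstream sequence is shown for Car4 and Apln, the carbonic anhydrase and the ligand of the aerocyte, because the results return to both genes. Promoter windows from RefSeq (GRCm38.p6) were held for 4 of the 10 genes, and those of Fibin and Chst1 lay partly or wholly inside the annotated gene and are not printed. Each run holds the 250 bases before the start that RefSeq annotates, which for Car4 lies upstream of the GENCODE vM21 start used for the gene positions given with the values, read 5′ to 3′ on the gene's own strand, at chr11:84957504-84957753 (+) for Car4 and at chrX:48034854-48035103 (-) for Apln. Capitals mark the motifs that were searched on both strands.
Car4: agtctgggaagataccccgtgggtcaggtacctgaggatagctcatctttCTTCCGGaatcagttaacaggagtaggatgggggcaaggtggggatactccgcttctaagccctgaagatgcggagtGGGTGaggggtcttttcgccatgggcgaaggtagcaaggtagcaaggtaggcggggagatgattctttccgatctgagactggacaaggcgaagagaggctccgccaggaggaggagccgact
Apln: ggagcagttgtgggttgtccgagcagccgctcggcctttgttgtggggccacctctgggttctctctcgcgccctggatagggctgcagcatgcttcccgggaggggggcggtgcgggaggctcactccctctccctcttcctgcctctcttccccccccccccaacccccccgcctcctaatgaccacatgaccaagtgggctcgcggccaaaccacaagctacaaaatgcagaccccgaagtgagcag
The motifs were CCGGAAG (an ETS-type core), CACCC (a KLF-type core) and ACGTG (the core of the hypoxia response element), and no 2 of them overlapped. In Car4 the first capital run is CCGGAAG and the second is CACCC, each on the opposite strand, and the printed Apln run held none of the motifs. Of 4 capillary genes searched, 1 held CCGGAAG, 2 (Car4 and Fibin) held CACCC and 0 held ACGTG. Among 32851 promoter windows of the same length, 6.91% held CCGGAAG, 52% held CACCC and 16.6% held ACGTG. A match is a run of letters and was not tested as a binding site.

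The libraries held between 18157161 and 26365969 counted reads, and each capillary gene had between 310 (Chst1) and 15227 (Ptprb) reads in each mouse. Replicates were distinct libraries, the lowest chi-square per gene within a group being 22.1. Between groups the lowest was smaller, 13.0 for BLM 4 against BLM+HBO 2, so the most alike libraries came from different groups. The first principal component (37.3% of the variance) placed all BLM mice at or below -6.08 and BLM+HBO 1 and 3 at or above 37.8, with BLM+HBO 2 at -0.996, beside the BLM mice. Levels are given as CPM, reads scaled to the TMM-normalised size of each library. A gene was called at an unadjusted P below 0.05 in edgeR's quasi-likelihood test with a fold change above 1.5, the thresholds of the study. P values set the difference between the groups against the spread between mice within each group. The records do not say whether the libraries were made together.

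Of the 10 capillary genes, 3 were called, each of them higher in BLM+HBO: the aerocyte genes Fibin (1.51-fold) and Apln (1.54-fold) and the general capillary gene Tmem100 (1.53-fold). The remaining 7 did not pass the test, with folds between 0.916 for Tbx2 and 1.33 for Car4. Of all 17465 genes tested, 6.29% were called, 3.40% higher and 2.89% lower in BLM+HBO. In whole lung, fewer cells of a type and less RNA per cell cannot be told apart. The median log2 fold change over the 10 genes was 0.25, with 9 positive and 1 negative. Over all genes tested the median was 0.01, with 51.2% positive. The 10 genes were chosen with earlier results known, so these counts do not measure an excess over all genes and were not tested.

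The groups overlapped for all 10 capillary genes, while they did not overlap for 8.77% of the genes tested. No capillary gene passed a Benjamini-Hochberg adjusted P of 0.05 in edgeR, and neither did any other gene (0.00%), although 1861 genes (10.7%) had an unadjusted P below that value. DESeq2 called the same 3 capillary genes at the study's thresholds, with 6.72% of all genes called. At an adjusted P below 0.05 DESeq2 called 0.733% of the genes, and the capillary genes were not among them (adjusted P 0.146 for Fibin, 0.231 for Apln and 0.198 for Tmem100). Limma-trend called 1 of the 10, Apln, and 0 genes at an adjusted P below 0.05. Its log2 fold changes for Fibin (0.56, unadjusted P = 0.013 in limma-trend) and Tmem100 (0.58, unadjusted P = 0.023 in limma-trend) lay just under the 1.5-fold limit.

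**Figure D1:**
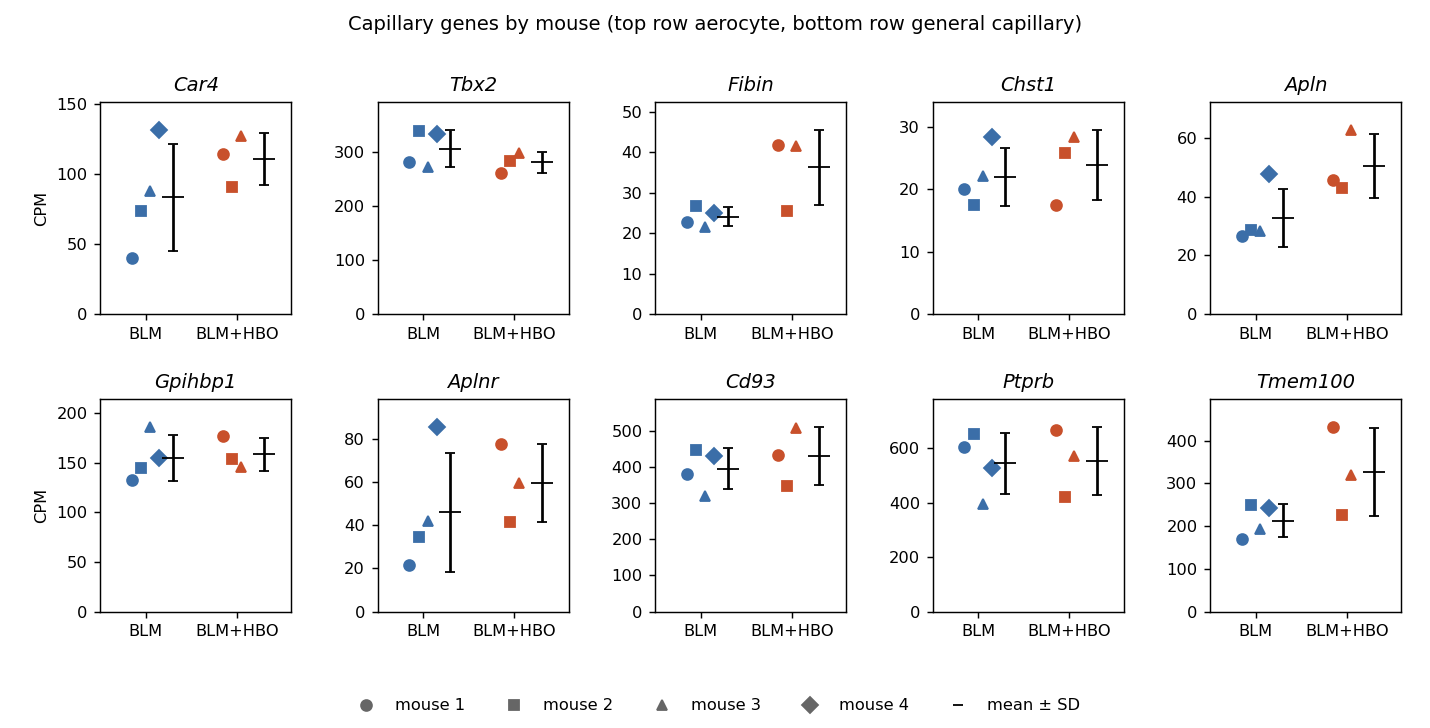
CPM of each capillary gene by mouse in BLM (blue) and BLM+HBO (orange), with a marker for each mouse number and the mean ± SD beside the points (n = 4 and n = 3). BLM+HBO 1 and 3 lay above every BLM mouse for Fibin and Tmem100, while BLM+HBO 2 lay inside the BLM range.

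Apln, the apelin precursor (ENSMUSG00000037010.7, GRCm38 chrX:48025146-48034853, minus strand), measured 26.7, 28.7, 28.3 and 47.6 CPM in BLM mice 1 to 4 and 45.5, 42.9 and 62.8 CPM in BLM+HBO mice 1 to 3. BLM mice 1, 2 and 3 were low, and BLM mouse 4 lay above both BLM+HBO 1 and BLM+HBO 2. Apln averaged 32.8 ± 9.88 CPM in BLM (SD, n = 4) against 50.4 ± 10.8 CPM in BLM+HBO (SD, n = 3), and its fitted log2 fold change was 0.62 (SE 0.22, 95% interval 0.13 to 1.11). After Benjamini-Hochberg adjustment over all genes tested, edgeR's quasi-likelihood test gave an adjusted P = 0.423. The call held in 3 of 7 fits that each left out 1 mouse, with log2 fold changes between 0.42 (without BLM+HBO 3) and 0.85 (without BLM 4), and omitting any of BLM 1, BLM 2, BLM 3 or BLM+HBO 3 ended it.

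Fibin, which encodes a secreted protein named for its role in fin bud initiation (ENSMUSG00000074971.4, chr2:110360917-110363183, minus strand), measured 22.9, 26.8, 21.6 and 25.1 CPM in BLM mice 1 to 4 and 41.9, 25.6 and 41.5 CPM in BLM+HBO mice 1 to 3. BLM+HBO 1 and 3 were far above the BLM mice, and BLM+HBO 2 lay within the BLM range. Fibin averaged 24.1 ± 2.33 CPM over the BLM mice (SD, n = 4) and 36.3 ± 9.31 CPM over the BLM+HBO mice (SD, n = 3). Its log2 fold change was 0.59 (SE 0.18, 95% interval 0.19 to 0.99), with an adjusted P = 0.423 in edgeR. The call held in 3 of 7 fits with 1 mouse left out and failed when BLM 1, BLM 3, BLM+HBO 1 or BLM+HBO 3 was omitted, the log2 fold change then lying between 0.48 and 0.57. Without BLM+HBO 2 the log2 fold change was 0.79 and the adjusted P was 0.0348 in edgeR. That fit called 10.7% of all genes tested, and 267 genes had an adjusted P below 0.05, against 0 with all mice. The adjusted P of Fibin ranged from 0.0348 to 0.802 over 16 alternatives.

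Car4, the membrane-bound carbonic anhydrase that turns carbon dioxide and bicarbonate into each other on the capillary wall (ENSMUSG00000000805.18, chr11:84957786-84966044, plus strand), was the aerocyte gene with the widest spread. It measured 39.7, 73.8, 87.8 and 131 CPM in the BLM mice and 114, 90.5 and 127 CPM in the BLM+HBO mice. BLM mouse 1 was the lowest of the 7 and BLM mouse 4 the highest, and the BLM+HBO mice all lay between BLM 3 and BLM 4. Its log2 fold change of 0.41 (SE 0.32, 95% interval -0.30 to 1.12) did not pass (adjusted P = 0.663 in edgeR). Without BLM 4 it was 0.72 and was called, and without BLM 1 it was 0.18.

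Tbx2, a T-box transcription factor also used by lung mesenchyme (ENSMUSG00000000093.6, chr11:85832551-85841948, plus strand), was the 1 capillary gene with a negative estimate. It measured 281, 339, 272 and 333 CPM in BLM and 260, 284 and 297 CPM in BLM+HBO, so that BLM+HBO 1 was the lowest of the 7 mice and the other two BLM+HBO mice lay between the lower and the higher pair of BLM mice. Tbx2 had a log2 fold change of -0.13 (SE 0.12, 95% interval -0.40 to 0.15, adjusted P = 0.739 in edgeR). Chst1, a sulfotransferase that acts on keratan sulfate (ENSMUSG00000027221.5, chr2:92599707-92615250, plus strand), had the lowest counts of the 10. It measured 20.0, 17.5, 22.1 and 28.4 CPM in BLM and 17.5, 25.8 and 28.3 CPM in BLM+HBO, with lowest and highest values alike in both groups. The estimate for Chst1 was 0.12 on the log2 scale (SE 0.21, 95% interval -0.35 to 0.58, adjusted P = 0.869 in edgeR).

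Tmem100, the target of ALK1 signalling (ENSMUSG00000069763.3, chr11:90030348-90036508, plus strand), was the general capillary gene with the largest estimate. It measured 169, 248, 192 and 242 CPM in BLM mice 1 to 4 and 432, 227 and 319 CPM in BLM+HBO mice 1 to 3. BLM+HBO 1 and 3 lay above every BLM mouse and BLM+HBO 2 among them, the same pattern as Fibin. BLM averaged 213 ± 38.5 CPM (SD, n = 4) and BLM+HBO averaged 326 ± 103 CPM (SD, n = 3). On the log2 scale the change was 0.61 (SE 0.22, 95% interval 0.13 to 1.10), with an adjusted P = 0.423 in edgeR. The call held in 4 of 7 fits with 1 mouse left out. It was lost without BLM 1, BLM 3 or BLM+HBO 1, and without BLM+HBO 1 the log2 fold change was 0.36.

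Aplnr, the apelin receptor (ENSMUSG00000044338.9, chr2:85136225-85139923, plus strand), measured 21.5, 34.8, 42.0 and 85.7 CPM in BLM and 77.9, 41.6 and 59.7 CPM in BLM+HBO. As for Car4, BLM 1 was the lowest and BLM 4 the highest of all mice. For Aplnr the log2 fold change was 0.37 (SE 0.40, 95% interval -0.52 to 1.27, adjusted P = 0.762 in edgeR). It was 0.87 and called without BLM 4, and 0.14 without BLM 1.

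Gpihbp1, which carries lipoprotein lipase to the luminal face of the capillary (ENSMUSG00000022579.10, chr15:75596628-75599481, plus strand), measured 132, 145, 186 and 155 CPM in BLM and 177, 153 and 145 CPM in BLM+HBO. The BLM+HBO values lay inside the BLM range, with a log2 fold change of 0.04 (SE 0.14, 95% interval -0.27 to 0.34, adjusted P = 0.941 in edgeR). Cd93 (ENSMUSG00000027435.8, chr2:148436640-148443563, minus strand) measured 382, 448, 321 and 431 CPM in BLM and 434, 349 and 510 CPM in BLM+HBO. Its highest value was in BLM+HBO 3 and its lowest in BLM 3, and the log2 fold change was 0.12 (SE 0.16, 95% interval -0.24 to 0.49, adjusted P = 0.818 in edgeR). Ptprb (ENSMUSG00000020154.10, chr10:116275523-116389535, plus strand), which encodes the phosphatase VE-PTP, measured 604, 652, 394 and 529 CPM in BLM and 669, 420 and 571 CPM in BLM+HBO. Its log2 fold change was 0.02 (SE 0.21, 95% interval -0.44 to 0.48, adjusted P = 0.980 in edgeR). It was highest in BLM+HBO 1 and BLM 2 and lowest in BLM 3 and BLM+HBO 2.

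**Figure D2:**
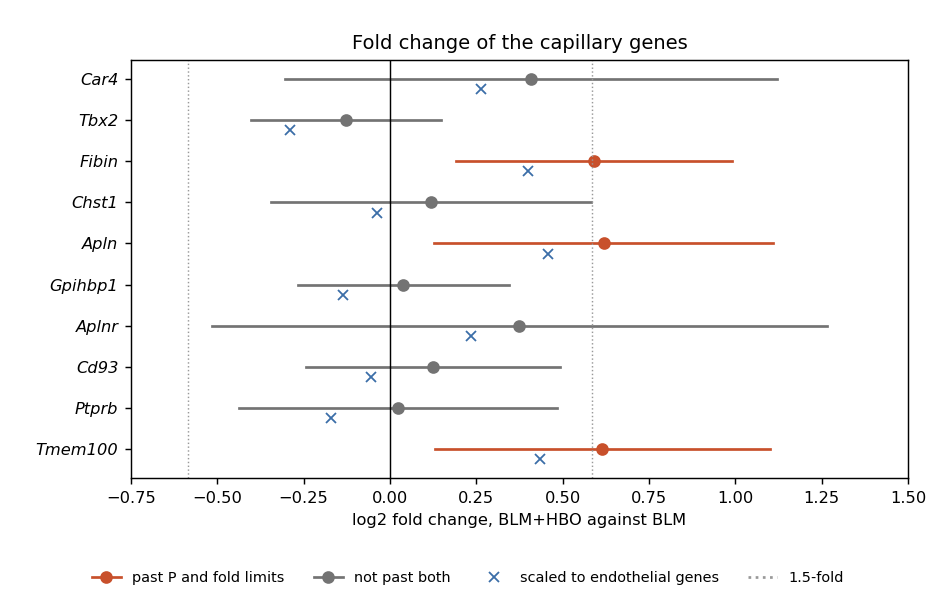
Log2 fold change of each capillary gene in BLM+HBO against BLM with its 95% interval (circles and lines, orange where both limits were passed), and the value after scaling to endothelial genes (crosses). Fibin, Apln and Tmem100 lay just past the dotted 1.5-fold line and every cross lay to the left of its circle.

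Single mice stood at an end of the range for several capillary genes at once. BLM mouse 1 had the lowest value of the 7 mice for 5 of the 10 genes and BLM mouse 4 the highest for 3. In BLM+HBO, mouse 1 was the highest for 3 genes and mouse 3 for 2, while mouse 2 was neither highest nor lowest for any. With BLM mouse 4 left out, 5 capillary genes were called (Car4, Fibin, Apln, Aplnr and Tmem100), with 7.08% of all genes tested called in that fit. With BLM mouse 1 or BLM mouse 3 left out 0 capillary genes were called, against 4.09% and 7.44% of all genes. Without BLM+HBO 1 the call of Apln was the only one of the 10, with 3.7% of all genes called, and without BLM+HBO 3 that of Tmem100 was, with 4.95%. Leaving out BLM+HBO 2 kept the calls of Fibin, Apln and Tmem100, with 10.7% of all genes called. Leaving out BLM 2 kept those of Fibin and Tmem100, with 4.99%.

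**Figure D3:**
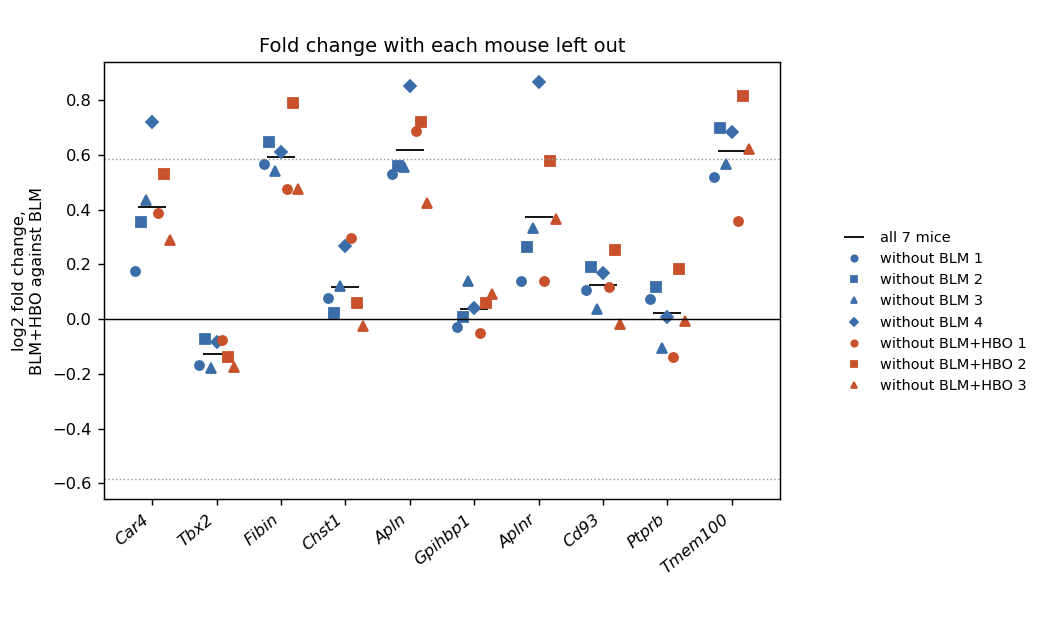
Log2 fold change of each capillary gene with all 7 mice (black bars) and with each mouse left out in turn (blue markers for a BLM mouse, orange for a BLM+HBO mouse); dotted lines mark 1.5-fold. Car4 and Aplnr moved the most, from 0.18 to 0.72 and from 0.14 to 0.87, and Tbx2 stayed below 0 in every fit.

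The mean log2 CPM of the 5 aerocyte genes was 5.41, 5.67, 5.66 and 6.10 in the BLM mice and 5.98, 5.89 and 6.28 in the BLM+HBO mice. The mean level of BLM mouse 4 lay between those of the BLM+HBO mice, and the group means were 5.71 ± 0.29 (SD, n = 4) and 6.05 ± 0.20 (SD, n = 3). For the 5 general capillary genes the mean log2 CPM was 7.34, 7.68, 7.49 and 7.88 in BLM and 8.13, 7.53 and 7.91 in BLM+HBO, with BLM+HBO 2 within the BLM range. The aerocyte level minus the general capillary level, on the log2 scale, was -1.89 ± 0.10 in BLM and -1.81 ± 0.30 in BLM+HBO, a difference of 0.08 that was smaller than either SD. Within BLM+HBO this balance was -2.15 in mouse 1 and -1.64 and -1.63 in mice 2 and 3. These group means were not tested, because the genes were chosen with earlier results of these data known.

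**Figure D4:**
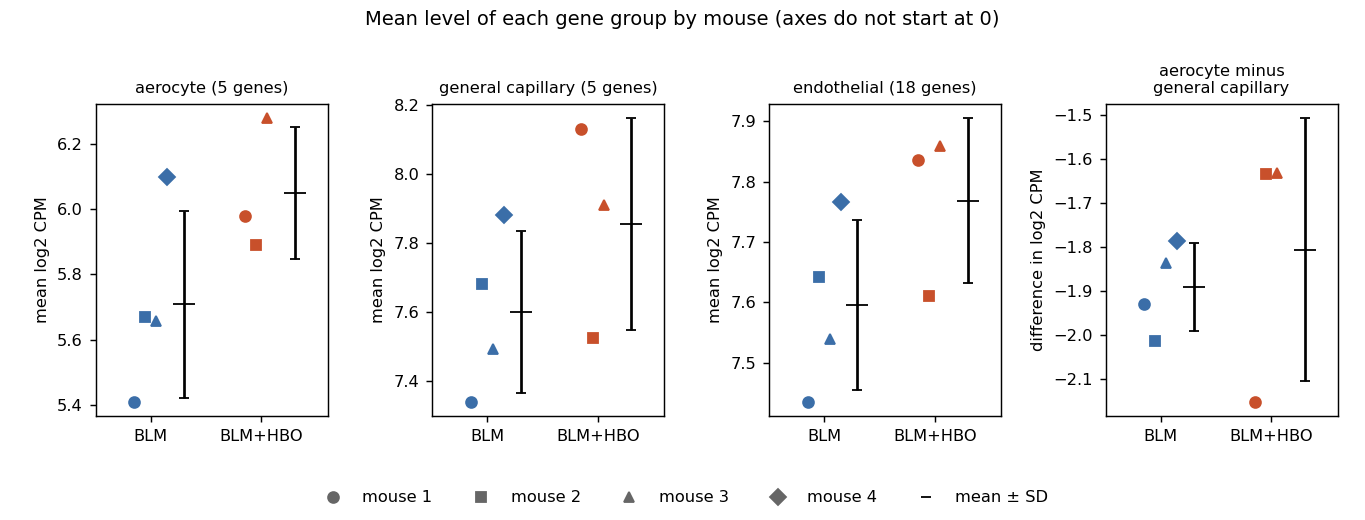
Mean log2 CPM of the aerocyte, general capillary and shared endothelial genes by mouse, and the aerocyte minus general capillary difference, with mean ± SD beside the points (n = 4 and n = 3). The groups overlapped in all 4 panels, and BLM 4 lay near the BLM+HBO mice in each of the first 3.

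Capillary RNA was read beside that of the whole endothelium, with 18 genes that endothelial cells of all vessels share, among them the junction genes Pecam1 and Cdh5. All 18 were measured and passed the filter, with summed levels between 4505 and 5426 CPM in BLM and between 4913 and 5856 CPM in BLM+HBO. None was called, 15 had a positive and 3 a negative estimate, and their median log2 fold change was 0.18. Pecam1 had a log2 fold change of 0.27 (SE 0.15) and Cdh5 of 0.14 (SE 0.15). With libraries scaled to these 18 genes in place of all genes, 0 of the 10 capillary genes were called, with 7.19% of all genes called. Under this scaling the median of all genes moved from 0.01 to -0.17 and 5 of the 10 capillary genes were positive. The log2 fold changes were then 0.40 for Fibin (adjusted P = 0.425), 0.46 for Apln (adjusted P = 0.406) and 0.43 for Tmem100 (adjusted P = 0.425) in edgeR. All lay below the 1.5-fold limit, with unadjusted P of 0.038, 0.029 and 0.039 in edgeR.

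Per length of transcript, over all 7 mice, Tmem100 was the highest of the 10 at 148 ± 50.4 RPKM (SD, n = 7), followed by Tbx2 at 81.4 ± 8.35 RPKM, Cd93 at 61.5 ± 9.65 RPKM and Gpihbp1 at 61.2 ± 7.46 RPKM. Car4 (48.3 ± 16.5 RPKM) and Ptprb (41.1 ± 8.08 RPKM) came next. Aplnr (14.0 ± 6.34 RPKM), Fibin (12.9 ± 3.80 RPKM), Apln (12.8 ± 4.21 RPKM) and Chst1 (8.51 ± 1.77 RPKM) were the lowest. The ranges of neighbours in this order overlapped, except between Tmem100 and Tbx2 and between Ptprb and Aplnr. All 10 lay in the upper part of the genes tested, from percentile 65.2 for Chst1 to 98.4 for Tmem100.

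Apela, the second ligand of the apelin receptor, had 0, 0, 0 and 2 reads in BLM and 2, 3 and 3 reads in BLM+HBO. It was near absent in all 7 mice and was not tested.

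In the ALK1 and BMP receptor pathway, to which Tmem100 belongs, 0 of 12 partner genes were called and the median log2 fold change was -0.05. The receptor gene Acvrl1, which encodes ALK1, had a log2 fold change of 0.17 (SE 0.14), its co-receptor Eng of 0.16 (SE 0.15) and Bmpr2 of -0.04 (SE 0.17). Of the 7 genes around TIE2 and VE-cadherin, the substrates of VE-PTP, 0 were called and the median was 0.14. Tek, which encodes TIE2, had a log2 fold change of 0.04 (SE 0.20), Tie1 of 0.21 (SE 0.14), and the ligands Angpt1 and Angpt2 of -0.04 (SE 0.17) and 0.19 (SE 0.22).

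In intravascular lipolysis, the pathway of Gpihbp1, 1 of 6 genes was called, lower, and the median log2 fold change was -0.13. Angptl4, a secreted inhibitor of lipoprotein lipase and a target of hypoxia and of fatty acid sensing, fell. It measured 68.8, 63.7, 86.9 and 98.2 CPM in BLM and 39.4, 60.1 and 47.5 CPM in BLM+HBO, and the groups did not overlap. Its log2 fold change was -0.70 (SE 0.19, adjusted P = 0.423 in edgeR), and the call held in 5 of 7 fits with 1 mouse left out, not without BLM 4 or BLM+HBO 1. Lpl, the lipase itself, averaged 614 ± 52.2 CPM over the BLM mice (SD, n = 4) against 466 ± 252 CPM over the BLM+HBO mice (SD, n = 3), with 755 CPM in BLM+HBO 2 and 290 and 354 in the others, and its log2 fold change of -0.40 (SE 0.29) did not pass. Without BLM+HBO 2 the log2 fold change of Lpl was -0.93 and it was called, in a fit that called 10.7% of all genes.

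Of the 4 genes of CD93 and its matrix partners, 1 was called, lower, with a median log2 fold change of -0.11. Of these genes 2 were positive and 2 negative, Igfbp7 (-0.48, not called) among the negative ones. Multimerin 2 (Mmrn2), a CD93 ligand, measured 49.7, 50.4, 44.4 and 59.7 CPM in BLM and 68.7, 61.0 and 73.8 CPM in BLM+HBO. These groups did not overlap, and the log2 fold change of 0.41 (SE 0.12, adjusted P = 0.423 in edgeR) stayed under the 1.5-fold limit, so Mmrn2 was not called. The called gene was Cd248, a relative of Cd93 expressed by pericytes and fibroblasts, with a log2 fold change of -1.12 (SE 0.43, adjusted P = 0.439 in edgeR). Its call was lost without BLM 1, BLM+HBO 1 or BLM+HBO 3.

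Among 8 further aerocyte genes, 7 of which had a positive estimate, 1 was called higher, the low-expressed Rprml (0.923 ± 0.421 CPM in BLM and 2.08 ± 1.07 CPM in BLM+HBO, log2 fold change 1.17, SE 0.45). Rprml lost its call when BLM 1, BLM 2, BLM 3 or BLM+HBO 3 was left out. Ednrb, an endothelin receptor of aerocytes, had a log2 fold change of 0.49 (SE 0.27, adjusted P = 0.544 in edgeR) that did not pass, with 64.9 and 50.1 CPM in BLM+HBO 1 and 3 against 27.3 in BLM+HBO 2. Without BLM+HBO 2 it was 0.77 and called, in the fit that called 10.7% of all genes. Kdr, a VEGF receptor gene and also one of these aerocyte genes, had a log2 fold change of 0.27 (SE 0.18). The median log2 fold change was 0.20 over these 8 genes and 0.14 over 8 further general capillary genes, of which 0 were called. Plvap, which forms the diaphragms of fenestrae and caveolae, had a log2 fold change of 0.26 (SE 0.22). Of the 8 further general capillary genes, 6 were positive, Plvap among them, and 2 negative, Cxcl12 (-0.52) and Lpl (-0.40).

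Venous and injury-related endothelial genes included calls in the opposite direction to those of the capillary genes. Lrg1, a secreted glycoprotein of inflamed venules and injured endothelium, fell from 339, 493, 528 and 446 CPM in BLM to 231, 308 and 284 CPM in BLM+HBO. The groups did not overlap, the log2 fold change was -0.72 (SE 0.17, adjusted P = 0.423 in edgeR), and the call held in 7 of 7 fits with 1 mouse left out. All 6 genes of injury-activated capillary cells had a negative estimate, 1 of them called, with a median log2 fold change of -0.67. Of 7 venous genes, 2 were called lower, Ackr1, a chemokine-binding receptor of venules, with a log2 fold change of -1.14 (SE 0.31), and Selp, the leukocyte adhesion molecule P-selectin, with -1.03 (SE 0.34), both without overlap and in 7 of 7 fits with 1 mouse left out. Over the 7 venous genes, 5 estimates were negative and 2 positive (Car8 0.56 and Prss23 0.20), with a median of -0.07. The 7 arterial genes had 0 calls and a median of -0.12, and of 5 lymphatic genes tested 1 was called lower, Reln (-0.82, SE 0.35), whose call depended on each of BLM 1, BLM 2, BLM+HBO 1 and BLM+HBO 3.

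**Figure D5:**
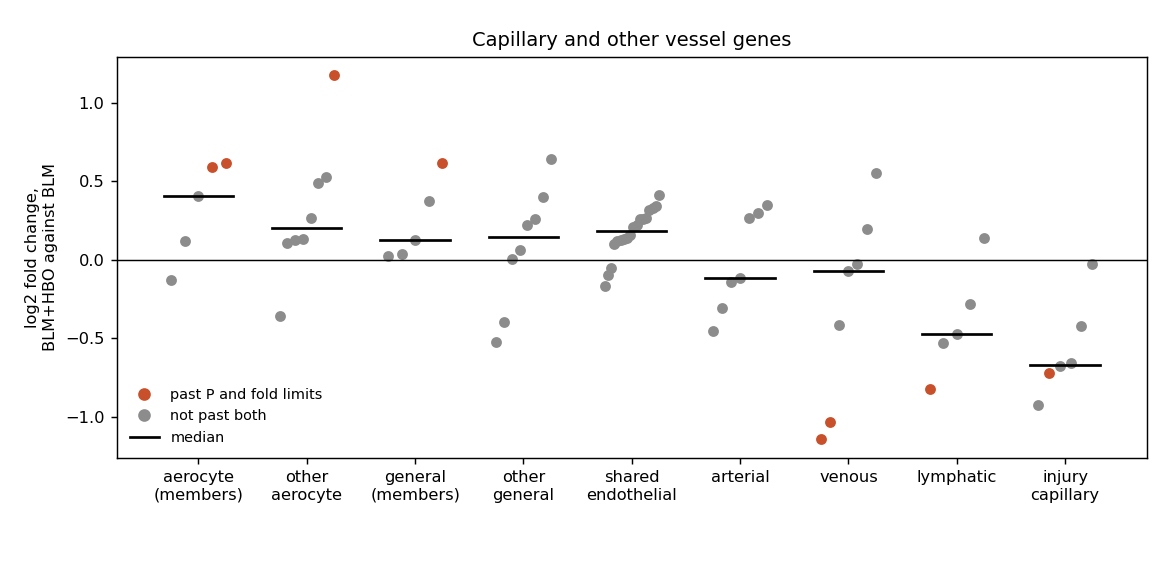
Log2 fold change in BLM+HBO against BLM of every tested gene of each vessel list (dots, orange where both limits were passed) with the list's median (black bars). The capillary lists had medians between 0.12 and 0.41, the venous list -0.07, and the list of injury-activated capillary genes -0.67.

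Markers of other cells that could add reads to the capillary genes were measured in the same libraries. Heart muscle genes had the largest median log2 fold change of all lists measured (1.70), with 9 of 11 called higher, 11 positive and a summed level between 71.0 and 201 CPM in BLM and of 734, 578 and 168 CPM in BLM+HBO 1 to 3. In BLM+HBO 3 the summed level lay within the BLM range, although Mb (6.41 CPM) and Actc1 (50.8 CPM) were above their highest BLM values (2.37 and 29.1 CPM), and Apln measured 62.8, Fibin 41.5 and Tmem100 319 CPM there. Of 4 endothelial genes of heart and fat tested, 1 was called, Fabp4, and it fell (log2 fold change -0.63, SE 0.17, not called without BLM 4 or BLM+HBO 3). Of these 4 genes, 2 were positive and 2 negative, with a median log2 fold change of 0.015. The largest positive estimate was that of Rbp7 (0.64, not called). Adipocyte genes were low, with 3 of 7 tested, 0 called and summed levels between 1.98 and 11.1 CPM over the 7 mice.

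Lung fibroblast markers, which matter for Tbx2 and Fibin because mesenchyme uses both, had 2 of 8 called higher, Tcf21 (34.2 ± 9.95 CPM in BLM, 55.5 ± 14.5 CPM in BLM+HBO) and Inmt (330 ± 124 and 667 ± 354 CPM). Of the 8, 5 were positive and 3 negative (Pdgfra -0.52, Fgf10 -0.14 and Meox1 -0.04), with a median log2 fold change of 0.11. Summed levels lay between 766 and 1402 CPM in BLM and between 1155 and 1966 CPM in BLM+HBO. In BLM+HBO 1, Inmt alone held 1067 of the 1966 CPM. The call of Tcf21 was lost without BLM 3 or BLM+HBO 1 and that of Inmt without BLM 1, BLM 3 or BLM+HBO 1. Inmt measured 1067, 393 and 542 CPM in BLM+HBO 1 to 3, so that BLM+HBO 2 was the lowest of the BLM+HBO mice, as for Fibin and Tmem100. Pericyte genes summed to between 470 and 599 CPM in BLM and between 322 and 575 CPM in BLM+HBO, with 0 of 7 called, and smooth muscle genes had 1 of 6 called lower. Alveolar macrophage markers had 2 of 7 called in each direction, alveolar type 2 cell markers 1 of 7 called higher with all 7 positive, and alveolar type 1 cell markers 0 of 7 called. Erythroid markers had 0 of 5 called, and no marker in any of these lists was at 0 in every mouse. The part of these cells in the capillary values was not tested.

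Outside the 10 genes, those whose log2 CPM over the 7 mice was most like the mean profile of the aerocyte genes were Gm9917 (Pearson r = 0.974), Eogt (0.973), Rad54b (0.963), Eng (0.962) and AC165951.5 (0.960). Eng encodes endoglin, the co-receptor of ALK1 on endothelial cells, and Eogt a sugar transferase that modifies Notch receptors. Most like the general capillary genes were Rnf144a (0.995), Rps6ka1 (0.992), Mcm2 (0.986), 2700054A10Rik (0.983) and Cacna2d4 (0.982). These were the highest correlations among all tested genes, each over 7 points from 7 libraries, and are given as a description.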

How the data were processed

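Right lung lobes of 4 BLM and 3 BLM+HBO mice were sequenced, with 1 library per mouse (Trizol, NEBNext Ultra, paired ends on an Illumina NovaSeq). The authors used Trim Galore for trimming, HISAT2 2.2.0 (version per the submitters' processing notes) for alignment to GRCm38, and featureCounts with default options for the deposited raw read counts. By default strand is ignored, and multi-mapping reads and reads shared by genes are dropped. The annotation release was not given in the sources used here. No member shared an exon with another annotated gene, and no column of values was left unused.

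Groups came from the sample titles. Symbols were taken from GENCODE vM21 (55141 of 55401 identifiers matched, 54349 in the same version). Low counts were removed by filterByExpr (10 reads, total of 15), and the rest were scaled by TMM (factors 0.964 to 1.036) and tested with the quasi-likelihood F test of edgeR 4.0.16 under R 4.3.3, common biological coefficient of variation 0.222, with P values adjusted by Benjamini-Hochberg over 17465 genes. Log2 CPM used a prior count of 2. DESeq2 1.42.0 and limma 3.58.1 were alternatives, with other scalings and filters, a replicate block and single mice left out.

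The members and companion lists were chosen with earlier results of these data known. The rule for named genes took all members, stated pathway partners whatever their value, up to 4 called genes per companion list by smallest P, and the 5 genes most correlated with each member group. Libraries held 18157161 to 26365969 counted reads. Results of the other apelin pathway partners and of the leukocyte markers are not reported here.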

Additional observations from a re-analysis of the deposited data

Results flagged for a closer look

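In the BLM group, 2 of 14 sets of values had 1 mouse far from the others by Dixon's criterion (its 95% limit for 4 samples, which chance exceeds in about 1 of 20 groups). The log2 CPM of Apln was 5.58 in BLM mouse 4 against 4.74 to 4.85 in the other BLM mice, a gap of 0.873 of the group's range. The total of counted reads was 19002242 in the same mouse against 18436336 to 18452895, a gap of 0.971 of the range. Without BLM mouse 4 the log2 fold change of Apln was 0.85 in place of 0.62.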

How the results depend on the processing

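Of the 10 capillary genes, 3 were called in the reported fit. The same 3 were called with DESeq2, with upper-quartile or RLE factors, with robust empirical Bayes, with low counts kept, or with genes required to reach 1 CPM in 3 mice. Limma-trend called 1, a P limit of 0.01 called 1, and 0 were called with libraries scaled to the endothelial genes, with a fold limit of 2, or at an adjusted P of 0.05 or 0.1. With 1 mouse left out in turn between 0 and 5 were called, and between 0 and 2 after scaling to the endothelial genes (2 without BLM mouse 4). Among the companion lists 29 calls became 18 at a fold limit of 2, 12 at a P limit of 0.01, and 0 at an adjusted P of 0.05 or 0.1, and lay between 17 (without BLM+HBO 1) and 50 (without BLM+HBO 2) with a mouse left out. The fits without BLM+HBO 1 and without BLM+HBO 2 called 3.7% and 10.7% of all genes tested. The causes were not tested.

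Estimates near 0 turned sign. With endothelial scaling the log2 fold change was -0.038 for Chst1, -0.13 for Gpihbp1, -0.056 for Cd93 and -0.17 for Ptprb. With a mouse left out it ranged from -0.026 to 0.30 for Chst1, from -0.049 to 0.14 for Gpihbp1, from -0.019 to 0.25 for Cd93 and from -0.14 to 0.18 for Ptprb. The signs of Car4, Tbx2, Fibin, Apln, Aplnr and Tmem100 did not change under the 16 alternatives.

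Replicate numbers were shared by the groups, and the sample titles do not say whether they pair mice. The correlations of same-numbered deviations were -0.01, -0.07 and 0.16, and 2 of 6 mice correlated best with their own number. So few mice cannot settle whether the numbers pair them. With a replicate block 7.2% of all genes and 3 capillary genes were called, Car4 (0.78), Apln (0.83) and Aplnr (0.86), and Fibin (0.58) and Tmem100 (0.65) were not. BLM 4 was the only mouse with number 4, so in the blocked fit it added nothing to the estimated change. Without BLM 4 and without a block, Car4 (0.72), Apln (0.85) and Aplnr (0.87) were also called, as were Fibin (0.61) and Tmem100 (0.68).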

Other observations

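The families of 3 aerocyte genes were measured beside them. Among other carbonic anhydrases and bicarbonate carriers, 1 of 10 tested genes was called higher in BLM+HBO, the membrane-bound Car14 (mean 7.19 ± 1.67 CPM over 4 BLM mice and 12.3 ± 7.06 CPM over 3 BLM+HBO mice, SD). Its value was 20.4 CPM in BLM+HBO 1 against 8.76 and 7.72 in the others, and without BLM+HBO 1 its log2 fold change fell from 0.77 to 0.20. The call was also lost without BLM 1, BLM 2 or BLM 3. Of the 4 T-box genes of lung beside Tbx2, 0 were called: Tbx3, the closest relative of Tbx2, had a log2 fold change of 0.11 (SE 0.17), and Tbx4 and Tbx5, which pattern lung mesenchyme, had -0.31 (SE 0.17) and -0.36 (SE 0.16, adjusted P = 0.467 in edgeR). Of 5 sulfotransferase genes related to Chst1, 1 was called lower, Chst5, at 6.10 ± 0.412 CPM in BLM and 3.81 ± 0.636 CPM in BLM+HBO, without overlap between the groups (log2 fold change -0.68, SE 0.21). The call of Chst5 was lost without BLM+HBO 1.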
